A study of Mus musculus with 48 samples.

Results

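Blood vessel genes were read in 4 groups of mouse tumours as a set of endothelial identity genes and a set of leukocyte adhesion genes. The rule took the rows of the count table whose gene symbol was Pecam1, Cdh5, Emcn, Robo4 or Plvap (identity) or Icam1, Vcam1, Sele, Selp or Madcam1 (adhesion). The table held 9 of the 10 genes, out of 39637 in all, and Madcam1 was not analysed here. All 9 passed the filter on low counts in every comparison. RNA came from whole tumours grown under the skin of female BALB/c mice aged 8 to 9 weeks, removed before antibodies against CTLA4 and PD-L1 were given. AB1 tumours, from a mouse mesothelioma line, were taken out on day 8. Renca tumours, from a line of mouse kidney cancer, were taken out on day 10. The labels class each mouse as a responder or a non-responder to the combined antibodies, with 12 mice in each of the 4 groups and a library for each mouse. Each model is a single transplanted cell line, so vessels and leukocytes in these tumours come from the BALB/c host.

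Endothelial cells line blood vessels and hold together through junction proteins such as VE-cadherin. Leukocytes leave the blood by rolling on selectins, arresting on immunoglobulin-type adhesion molecules through their integrins, and passing between or through endothelial cells. Resting endothelium carries little E-selectin or VCAM-1. Inflammatory cytokines such as TNF, IL-1 and interferon-gamma induce adhesion molecules, partly through NF-kB. ICAM-1 and VCAM-1 are also made by other cells, including macrophages, fibroblasts and some tumour cells, and P-selectin is also stored in platelets.

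Of the 9 members, 3 were higher and 0 lower in responders of each tumour, beside 60.4% of all genes tested that passed in either direction in AB1 and 19.6% in Renca. Icam1 was higher in responders of both models, with a log2 fold change of 1.46 ± 0.21 (SE) in AB1 and 0.59 ± 0.14 in Renca. Vcam1 was also higher in AB1 responders, by 1.05 ± 0.16, and the selectins Sele and Selp in Renca responders, by 0.93 ± 0.31 and 0.55 ± 0.17. Of the 5 identity genes, Pecam1 alone passed the test, in AB1, at 0.38 ± 0.07. These values come from edgeR's quasi-likelihood test with 12 libraries a group, flow cell as a term, and Benjamini-Hochberg adjustment at 0.05 over all genes tested.

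Sequences before the gene starts of Icam1, Sele and Selp are shown because these 3 genes were higher in Renca responders. They are from RefSeq (GRCm38.p6), which matched 5 of the 9 members (also Emcn and Robo4), and each holds the 250 bases before the annotated start, 5′ to 3′ on the gene's strand. All 3 lie on the plus strand, Icam1 at chr9:21015690-21015939, Sele at chr1:164047984-164048233 and Selp at chr1:164115014-164115263. Capitals mark matches to TTCNNNGAA, the gamma-activated sequence or GAS form, and to GGNNNTTCC, a loose form of the NF-kB site, read on both strands.
Icam1: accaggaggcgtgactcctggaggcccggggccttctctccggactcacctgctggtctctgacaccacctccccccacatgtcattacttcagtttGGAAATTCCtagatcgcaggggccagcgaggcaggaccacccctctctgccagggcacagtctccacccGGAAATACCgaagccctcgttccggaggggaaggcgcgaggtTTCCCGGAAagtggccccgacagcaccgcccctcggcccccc
Sele: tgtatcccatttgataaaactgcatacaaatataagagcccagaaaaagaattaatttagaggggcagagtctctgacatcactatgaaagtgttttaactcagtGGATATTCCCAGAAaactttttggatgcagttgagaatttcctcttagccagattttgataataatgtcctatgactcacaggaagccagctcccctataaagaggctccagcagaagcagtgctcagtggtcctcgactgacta
Selp: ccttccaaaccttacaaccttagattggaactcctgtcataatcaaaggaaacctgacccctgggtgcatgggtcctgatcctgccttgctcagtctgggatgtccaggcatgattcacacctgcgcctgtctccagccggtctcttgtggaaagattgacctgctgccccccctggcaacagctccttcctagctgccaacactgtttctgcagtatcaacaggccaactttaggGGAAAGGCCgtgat
Icam1 held TTCCCGGAA at 42 to 34 bases before the start and 2 loose NF-kB matches, GGAAATTCC at 153 to 145 bases and GGAAATACC at 84 to 76 bases. In Sele the match TTCCCAGAA, at 140 to 132 bases, overlapped the match GGATATTCC, at 145 to 137 bases. Selp held the match GGAAAGGCC alone, at 14 to 6 bases. Over all 32851 promoter windows of this length, 7.02% held the GAS form, 15.7% the loose NF-kB form and 1.25% both. The NF-kB consensus itself, found in 7.25% of windows, matched none of the 5 members, and the loose form was chosen after that. Emcn and Robo4 held neither capitalised form, and matched AGGAAG, the core bound by ETS factors, as did Sele and Selp and 29.5% of windows. Sele also held TATAAA at 49 to 44 bases, a form in 12.4% of windows. A match describes these letters and shows no binding.

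Each library summed to between 16.4 and 27.8 M counts (M for mega), and the members drew median counts of 168.5 (Sele) to 3619 (Plvap) over the 48 libraries. Levels below are CPM, counts scaled by library total and TMM to a common total of 1 M. The lowest Sele count, 15 in Renca non-responder 4, marks the member and library where counting error weighs most. Of the 27 other blood endothelial genes in the table, none had a median of 0 in any group. Cdh16, a kidney tubule cadherin, had medians of 210 and 278 CPM in Renca responders and non-responders and at most 0.135 CPM in any AB1 library. Mesothelial markers had low medians in AB1 as in Renca, the 5 in the table summing to 1.64 and 1.56 CPM in AB1 and 2.64 and 2.36 in Renca. The highest sum was 18.9 CPM in AB1 non-responders and 3.20 in AB1 responders, against 5.12 and 4.39 in Renca non-responders and responders. By these medians the data do not mark AB1 as mesothelial. In bulk tumour RNA, fewer cells of a type and less RNA per cell cannot be told apart.

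Per kilobase of annotated exon, Plvap was the most abundant member in each group. Its medians were 92.4 and 78.6 CPM per kb in AB1 responders and non-responders and 72.5 and 72.6 in Renca, and its lowest library in each group exceeded the highest library of the next member. Plvap encodes the diaphragm protein of fenestrated endothelium. It overlaps Gtpbp3 on the opposite strand, which had a median of 32.4 CPM, and since the strand setting of the counting is not given, reads of the pair cannot be told apart. Below Plvap, Vcam1, Pecam1, Icam1 and Cdh5 followed in AB1 responders with overlapping ranges, the last 3 at 35.7, 34.7 and 27.3 CPM per kb. Cdh5 and Pecam1 followed Plvap in the other 3 groups, at 29.7 and 27.7 in AB1 non-responders, 26.5 and 23.2 in Renca responders, and 25.6 and 21.7 in Renca non-responders. Emcn, Robo4, Selp and Sele made up the low end in every group, between 1.19 (Sele, Renca non-responders) and 7.02 (Robo4, Renca responders) CPM per kb. Neighbours within that low end overlapped in range, except Emcn (5.33 to 7.12) and Selp (1.32 to 4.30) in Renca non-responders.

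Cdh5, VE-cadherin of the endothelial adherens junction, had a lowest, median and highest level of 86.2, 115 and 151 CPM in AB1 responders and 85.5, 125 and 164 in AB1 non-responders. In Renca the values were 71.8, 111 and 133 CPM in responders and 90.1, 108 and 127 in non-responders. In AB1 the responders lay within the range of the non-responders. In Renca they ranged more widely, with 5 of 12 below every non-responder and 3 above every non-responder. The 5 low libraries were responders 8 to 12, all of the second Renca flow cell. The 3 high libraries were responders 1, 4 and 6, all of the first, so this spread runs with flow cell. Response differences were -0.06 ± 0.08 in AB1 (95% interval -0.22 to 0.09) and -0.07 ± 0.07 in Renca (-0.20 to 0.06), and did not pass the edgeR test (adjusted p = 0.508 and 0.489). Cdh5 lies on chromosome 8 from 104101625 to 104144511 (GRCm38, plus strand).

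Pecam1, the CD31 adhesion protein of endothelial junctions that platelets and many leukocytes also carry, lies on chromosome 11 from 106654217 to 106750628 (minus strand). AB1 responders had a lowest, median and highest level of 182, 222 and 289 CPM, and AB1 non-responders 149, 172 and 210 CPM. All 12 responders exceeded the non-responder median and 8 exceeded the highest non-responder. The log2 difference was 0.38 ± 0.07 (edgeR adjusted p = 9.02e-05), and it was 0.33 (adjusted p = 0.0187) within the first AB1 flow cell and 0.44 (adjusted p = 0.00328) within the second. In Renca the levels were 102, 144 and 163 CPM in responders and 121, 135 and 152 in non-responders, with the responders spanning the whole non-responder range. That difference was 0.05 ± 0.05 (interval -0.04 to 0.14; edgeR adjusted p = 0.48).

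Emcn, an endothelial sialomucin of capillaries and veins (chromosome 3, 137341067 to 137432185, plus strand), had lowest, median and highest levels of 23.4, 29.8 and 44.7 CPM in AB1 responders and 22.5, 31.1 and 51.1 in AB1 non-responders. Renca responders had 22.1, 30.7 and 33.1 CPM and Renca non-responders 28.9, 32.6 and 38.5 CPM. Just 1 of 12 Renca responders exceeded the non-responder median. The Renca difference, -0.18 ± 0.06, missed the threshold (edgeR adjusted p = 0.0506). DESeq2 placed it just past the threshold (-0.17, adjusted p = 0.0431). The AB1 difference was -0.05 ± 0.13 (edgeR adjusted p = 0.744), with -0.45 in the first flow cell and 0.26 in the second, neither past the threshold (adjusted p = 0.0593 and 0.119).

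Robo4, an endothelial guidance receptor that stabilises vessels (chromosome 9, 37401897 to 37415115, plus strand), had medians of 28.5 and 33.4 CPM in AB1 responders and non-responders and 37.2 and 37.0 in Renca. Its ranges were 22.7 to 39.2 and 26.2 to 45.2 CPM in AB1, and 27.4 to 46.7 and 32.2 to 45.1 in Renca. The differences were -0.15 ± 0.07 in AB1 (interval -0.30 to -0.01, edgeR adjusted p = 0.0791) and -0.02 ± 0.07 in Renca (adjusted p = 0.875). Before adjustment the AB1 edgeR p was 0.0509, above 0.05 although the interval, a normal approximation, excludes 0. Plvap (chromosome 8, 71497765 to 71511752, minus strand) had lowest, median and highest levels of 112, 184 and 262 CPM in AB1 responders and 118, 156 and 198 in AB1 non-responders. Its AB1 difference was 0.21 ± 0.10 (edgeR adjusted p = 0.0735). Flow cells gave unequal values for it, 0.0036 (adjusted p = 0.989) in the first and 0.39 (adjusted p = 0.00876) in the second, and with sequencing lane as the term in place of flow cell, an alternative chosen after the data were seen, it passed the threshold at 0.23 (edgeR adjusted p = 0.0264). In Renca its medians were both 144 CPM and the difference was 0.03 ± 0.05 (adjusted p = 0.773).

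Over the identity set, 1 of 5 rose and 0 fell in AB1, where 27.7% of the 15859 genes tested were higher and 32.7% lower. In Renca 0 of 5 passed in either direction, where 11.1% of 15778 genes were higher and 8.52% lower. The median identity difference was -0.05 in AB1 and -0.02 in Renca, beside -0.04 and -0.01 over all genes. The plot of identity levels by library shows each of these ranges.

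**Figure D1:**
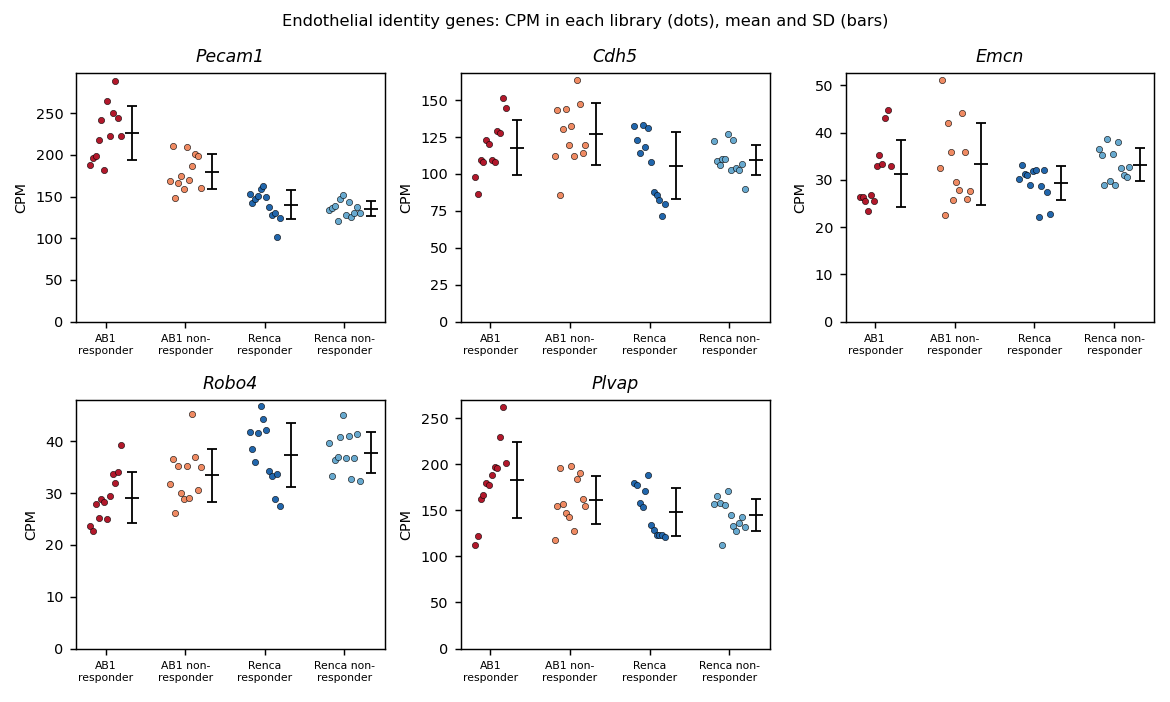
CPM (vertical axis, linear from 0) of the 5 identity genes in each library (dots) by group, with the mean and SD of 12 libraries (bars). Pecam1 sits higher in AB1 responders (182 to 289 CPM) than in AB1 non-responders (149 to 210 CPM), with 8 of 12 responders above every non-responder. The ranges of all 5 genes overlap across response in both tumours.

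The 27 other blood endothelial genes passed in both directions in AB1, where 27.7% of all genes tested were higher and 32.7% lower. Higher in responders were 5, among them Flt1, a VEGF receptor (0.42 ± 0.10, adjusted p = 0.000718) and Eng, a TGF-beta co-receptor (0.33 ± 0.08, adjusted p = 0.00104). Lower were 10, among them Tek, the angiopoietin receptor (-0.53 ± 0.11, adjusted p = 0.000335), Cd34, a sialomucin also carried by fibroblasts (-0.73 ± 0.14, adjusted p = 8.44e-05), and Aqp1, a water channel and the most abundant of the list (-0.38 ± 0.12, adjusted p = 0.00704). Their median was -0.17. In Renca 2 were higher and 3 lower, with a median of -0.04, beside 11.1% and 8.52% of all genes tested. Flt1 was lower there (-0.20 ± 0.05, edgeR adjusted p = 0.0116). Pericyte and smooth muscle genes were lower in 6 of 9 and higher in 0 of 9 in AB1 (median -0.30), led by Cspg4, the NG2 proteoglycan (-1.73 ± 0.22, adjusted p = 1.04e-06). Cspg4 was the 1 pericyte gene of 9 that fell in Renca (-0.38 ± 0.09, adjusted p = 0.00768).

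Icam1, the ligand of the leukocyte integrins LFA-1 and Mac-1 (chromosome 9, 21015985 to 21028817, plus strand), had a lowest, median and highest level of 68.8, 151 and 211 CPM in AB1 responders. AB1 non-responders had 32.1, 49.2 and 121 CPM. Responder 12 stood below the other responders, whose next lowest library was at 110 CPM, and non-responder 7 stood above the other non-responders, whose next highest was at 80.7 CPM. All 12 responders exceeded the non-responder median, and 10 exceeded every non-responder. The difference was 1.46 ± 0.21 (edgeR adjusted p = 4.5e-06), with 1.69 (adjusted p = 0.000307) in the first flow cell and 1.32 (adjusted p = 0.00346) in the second.

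In Renca, Icam1 had a lowest, median and highest level of 52.8, 74.1 and 98.3 CPM in responders and 34.6, 47.2 and 102 in non-responders. Non-responder 3 held that highest value, and the other 11 non-responders, at 52.0 CPM or less, lay below the lowest responder. The difference was 0.59 ± 0.14 (edgeR adjusted p = 0.0059), and 0.74 without non-responder 3. Within flow cells it was 0.43 (adjusted p = 0.334) and 0.76 (adjusted p = 0.007). With the RNA purity ratios of the labels as covariates it was 0.55 and missed the threshold (edgeR adjusted p = 0.0714), as did the Renca calls of Sele and Selp (values beside those genes), so that none of the 3 Renca calls passed in that fit. The ratio of absorbance at 260 and 230 nm moved with response in both tumours, in opposite directions. In Renca it was 1.99 ± 0.15 (SD, n = 12) for responders against 2.12 ± 0.11 for non-responders (two-sided permutation p = 0.0191, adjusted p = 0.072 over 4 comparisons of purity), and 2.18 ± 0.10 against 1.98 ± 0.34 in AB1 (permutation p = 0.036, adjusted p = 0.072). The AB1 calls of Icam1 (1.43), Vcam1 (1.01) and Pecam1 (0.32) passed with the covariates (edgeR adjusted p = 0.000138, 0.00033 and 0.0025). The part of RNA purity in the Renca differences was not tested beyond these values.

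Vcam1, the ligand of the integrin VLA-4 (chromosome 3, 116109949 to 116129688, minus strand), had a lowest, median and highest level of 261, 399 and 483 CPM in AB1 responders and 91.2, 180 and 318 in AB1 non-responders. As for Icam1, responder 12 was the lowest responder and non-responder 7 the highest non-responder. The difference was 1.05 ± 0.16 (edgeR adjusted p = 1.1e-05), with 1.36 (adjusted p = 0.000133) and 0.86 (adjusted p = 0.00847) within the flow cells. In Renca the levels were 67.4, 106 and 148 CPM in responders and 36.8, 78.1 and 161 in non-responders. Renca non-responder 5, at 161 CPM, exceeded every responder, and the next highest non-responder had 99.2 CPM. The Renca difference was 0.49 ± 0.19 and did not pass (edgeR adjusted p = 0.0784). It passed with lane as the term (0.55, edgeR adjusted p = 0.0463) and without non-responder 5 (0.63, adjusted p = 0.0135). Within flow cells it was 0.22 (adjusted p = 0.636) and 0.76 (adjusted p = 0.0842).

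Sele, E-selectin of cytokine-activated endothelium (chromosome 1, 164048234 to 164057677, plus strand), had lowest, median and highest levels of 2.74, 6.83 and 18.1 CPM in Renca responders and 0.635, 3.46 and 8.99 in Renca non-responders. The non-responder median was exceeded by 11 of the 12 responders, and 2 exceeded every non-responder. The difference was 0.93 ± 0.31 (edgeR adjusted p = 0.0362). The call missed the threshold with no low-count filter (0.93, edgeR adjusted p = 0.0511), with purity ratios (0.97, adjusted p = 0.141), within each flow cell (0.69, adjusted p = 0.378, and 1.17, adjusted p = 0.0971), and in 11 of 24 fits that left out a library (0.74, adjusted p = 0.0731, without responder 10). In AB1 the levels were 7.22, 12.6 and 23.2 CPM in responders and 4.63, 8.46 and 24.7 in non-responders, and the difference was 0.46 ± 0.24 (edgeR adjusted p = 0.105).

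Selp, P-selectin, which endothelium keeps in storage granules (chromosome 1, 164115264 to 164150026, plus strand), had lowest, median and highest levels of 8.69, 18.2 and 24.5 CPM in Renca responders and 5.84, 11.8 and 19.0 in Renca non-responders. Every non-responder was exceeded by 6 of the 12 responders. The difference was 0.55 ± 0.17 (edgeR adjusted p = 0.0247), with 0.49 (adjusted p = 0.287) and 0.61 (adjusted p = 0.114) within flow cells, 0.57 with purity ratios (adjusted p = 0.11), 0.52 in a fit of all 48 libraries (adjusted p = 0.0524) and 0.48 without responder 12 (adjusted p = 0.0504). In AB1 the levels were 12.2, 18.2 and 38.3 CPM in responders and 12.8, 20.4 and 34.1 in non-responders, a difference of -0.13 ± 0.16 (interval -0.44 to 0.19; edgeR adjusted p = 0.503). Responder 12, the AB1 responder lowest in Icam1 and Vcam1, was the highest in Selp, at 38.3 CPM against 19.8 for the next.

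**Figure D2:**
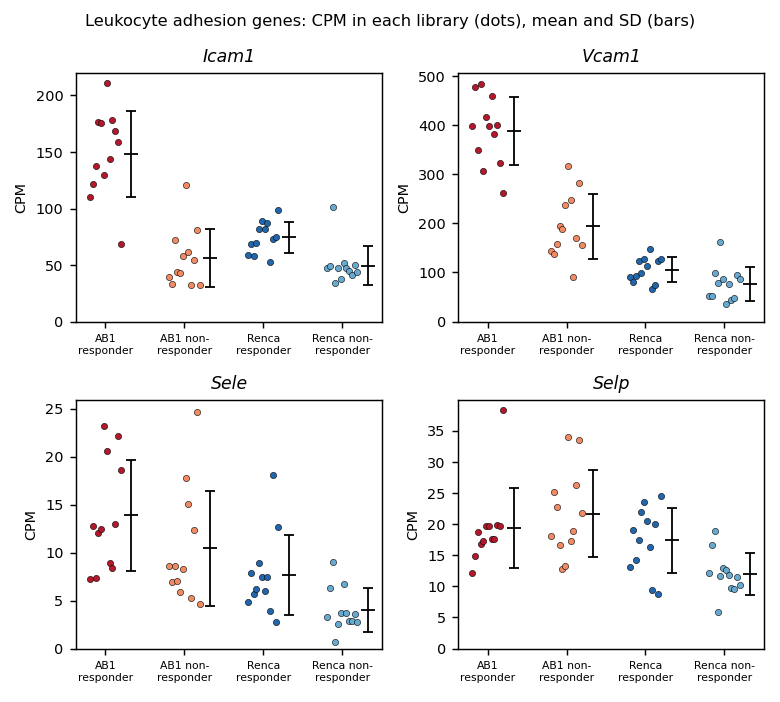
CPM (vertical axis, linear from 0) of the 4 adhesion genes in each library (dots) by group, with the mean and SD of 12 libraries (bars). In AB1, 10 of 12 responders lie above every non-responder for Icam1 and for Vcam1. In Renca, 6 of 12 do for Selp and 2 for Sele, and the groups overlap for each gene in both tumours.

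Of the 4 adhesion genes, 2 rose in AB1 and 3 in Renca, and 0 fell in either. The AB1 count over all 9 members lies below the share of all genes that passed, and the Renca count above it. The median adhesion difference was 0.75 in AB1 and 0.57 in Renca. No member had responders and non-responders free of overlap in CPM, which 2.74% of genes tested had in AB1 and 0.0127% in Renca.

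**Figure D3:**
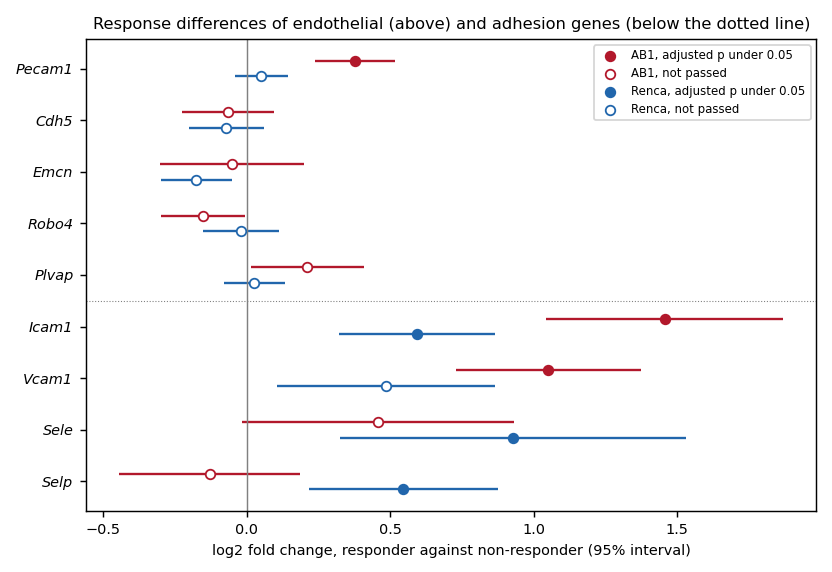
Log2 fold change of responders against non-responders (horizontal axis) with its 95% interval for each member in AB1 (red) and Renca (blue), filled where the edgeR adjusted p was under 0.05. Icam1 is filled in both tumours, Pecam1 and Vcam1 in AB1, and Sele and Selp in Renca.

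The response effect itself was compared between the tumours in a fit of all 48 libraries, where 41.6% of 16920 genes differed, 22.9% with the higher effect in AB1 and 18.6% with the lower. Of the 9 members, 2 had the higher and 1 the lower effect in AB1. Icam1 had the larger effect in AB1, by 0.90 ± 0.25 (edgeR adjusted p = 0.00368), and Pecam1 by 0.36 ± 0.09 (adjusted p = 0.000952). Selp had the larger effect in Renca, an AB1 minus Renca difference of -0.64 ± 0.23 (adjusted p = 0.0247). The difference for Vcam1, 0.60 ± 0.26, missed the threshold (adjusted p = 0.0554). For Sele it was -0.44 ± 0.40 (interval -1.22 to 0.34; adjusted p = 0.39), so its passing in Renca and not in AB1 does not show a difference between tumours. Cdh5, Emcn, Robo4 and Plvap did not pass (adjusted p from 0.13 to 0.804).

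Taking each adhesion gene against Cdh5 of the same library sets it beside endothelial RNA. The Icam1 to Cdh5 ratio of CPM had medians of 1.33 and 0.361 in AB1 responders and non-responders and 0.685 and 0.428 in Renca. Vcam1 to Cdh5 had 3.33 and 1.40 in AB1 and 0.920 and 0.655 in Renca. For Selp to Cdh5 the medians were 0.159 and 0.168 in AB1 and 0.166 and 0.103 in Renca. The lowest of these 4 Selp medians was that of Renca non-responders. Against Pecam1 the Selp medians were 0.0765 and 0.113 in AB1 and 0.126 and 0.0831 in Renca, with AB1 responders lowest. The place of Selp thus depends on the gene it is divided by. Icam1 and Vcam1 to Pecam1 were again highest in AB1 responders, at 0.671 and 1.64. Sele to Cdh5 had medians of 0.106 and 0.0731 in AB1 and 0.0561 and 0.0298 in Renca. With the mean level of 8 other endothelial genes as a covariate, Icam1 was still higher in responders of AB1 (1.32, edgeR adjusted p = 9.96e-05) and Renca (0.60, adjusted p = 0.00771), Vcam1 in AB1 (0.81, adjusted p = 0.000351), and Selp and Sele in Renca (0.62, adjusted p = 0.00995, and 0.97, adjusted p = 0.0369). Pecam1 then passed in both (0.48, adjusted p = 1.91e-05, and 0.10, adjusted p = 0.0083), as did Plvap (0.34, adjusted p = 0.0078) and Cdh5 (0.12, adjusted p = 0.0383) in AB1. That covariate correlated with response at r = -0.46 in AB1 and -0.15 in Renca over 24 libraries.

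**Figure D4:**
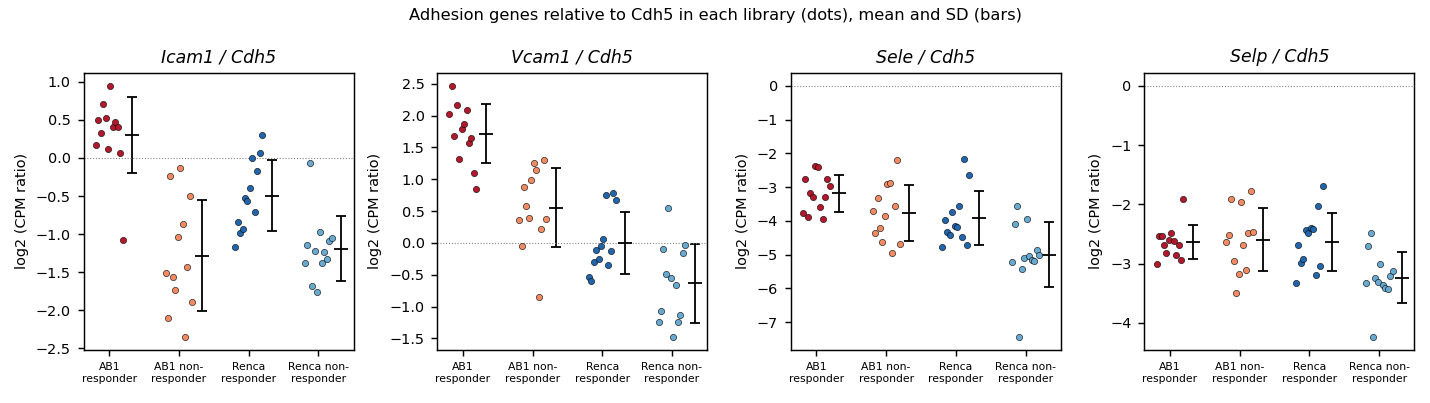
Log2 ratio of CPM of each adhesion gene to Cdh5 (vertical axis) in each library (dots) by group, with the mean and SD of 12 libraries (bars). Median Icam1 and Vcam1 ratios to Cdh5 are highest in AB1 responders. The median Selp ratio to Cdh5 is lowest in Renca non-responders, which does not hold for Selp to Pecam1.

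Of 12 genes for leukocyte ligands of the adhesion molecules, 9 were higher and 1 lower in AB1 responders (median 1.20), and 7 were higher and 0 lower in Renca (median 0.35). Itgb2, the shared chain of LFA-1 and Mac-1, rose by 1.46 ± 0.15 in AB1 (adjusted p = 3.94e-07) and 0.43 ± 0.10 in Renca (adjusted p = 0.00541). Itga4, the alpha chain of VLA-4, rose by 1.21 ± 0.14 (adjusted p = 6.39e-07) and 0.49 ± 0.10 (adjusted p = 0.0033). Itgb1, the most abundant of the list and broadly expressed, was the 1 gene lower in AB1 (-0.16 ± 0.04, adjusted p = 0.00113). Among 10 genes that glycosylate selectin ligands, 8 were higher in AB1, and among 9 tested in Renca 2 were. Beside these and the list counts below, 27.7% of all genes tested were higher and 32.7% lower in AB1, and 11.1% and 8.52% in Renca.

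Among 19 inducers of the adhesion genes and NF-kB feedback genes, 17 were higher and 1 lower in AB1 (median 1.11), and 10 higher and 1 lower in Renca (median 0.42). Tnfaip3, the NF-kB feedback inhibitor A20, rose by 1.27 ± 0.16 in AB1 (adjusted p = 1.04e-06) and 0.76 ± 0.21 in Renca (adjusted p = 0.0159). Irf1, an interferon-induced transcription factor, rose by 1.38 ± 0.26 (adjusted p = 9.45e-05) and 0.65 ± 0.14 (adjusted p = 0.00488). Il1r1, the IL-1 receptor, was the gene that fell in both (-0.21 ± 0.08, adjusted p = 0.0296, and -0.13 ± 0.03, adjusted p = 0.012). These lists pick out genes known to be expressed in leukocytes as well.

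Of 7 venule genes tested in AB1, 1 was higher and 3 were lower (median -0.49), and of 5 tested in Renca, 1 was higher and 1 lower (median -0.09). Ackr1, an atypical chemokine receptor of venules, rose in Renca responders (0.67 ± 0.12, adjusted p = 0.0032). In AB1 its difference was -0.56 ± 0.30 (adjusted p = 0.116), and the effects differed between tumours (-1.19 ± 0.33, adjusted p = 0.00373). Nr2f2, the vein identity factor also made by fibroblasts, fell in AB1 (-1.0 ± 0.13, adjusted p = 1.34e-06) and Ephb4, a venous ephrin receptor, fell in both tumours (-0.49 ± 0.08, adjusted p = 1.29e-05, and -0.17 ± 0.04, adjusted p = 0.0125). The gene higher in AB1 was Chst4, a sulfotransferase for L-selectin ligands of high endothelial venules (1.54 ± 0.37, adjusted p = 0.00111), and the third lower gene was Vwf, von Willebrand factor, stored with P-selectin (-0.84 ± 0.27, adjusted p = 0.0108). Over 12 transmigration and junction genes, 2 were higher and 5 lower in AB1, and 1 higher and 3 lower in Renca. Over 12 tip, arterial and flow genes, 2 were higher and 3 lower in AB1 and 0 passed in Renca. Lymphatic genes gave 0 of 7 in AB1 and 2 of 6 lower in Renca. Shares over all genes tested were 27.7% higher and 32.7% lower in AB1, and 11.1% and 8.52% in Renca.

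Markers of other cell types also differed with response. Leukocyte markers were higher in 12 of 13 in AB1 (median 1.55) and 9 of 13 in Renca (median 0.47), and lower in 0 of 13 in both. Their summed level ran from 1604 to 3520 CPM in AB1 responders, 1095 to 1593 in AB1 non-responders, 1604 to 2282 in Renca responders and 1342 to 1869 in Renca non-responders. Fibroblast markers were lower in 6 of 7 in AB1 and passed in 0 of 7 in Renca. Platelet genes, which bear on Selp, were higher in 1 of 3 tested in AB1 and passed in 0 of 2 in Renca. They summed to medians of 18.4 and 27.1 CPM in AB1 responders and non-responders and 29.5 and 33.8 in Renca. With the leukocyte level as a covariate, an alternative chosen after the data were seen, 0 genes passed in either tumour by edgeR, the only tool run for it (450 genes in AB1 and 656 in Renca had an unadjusted p under 0.05), and the Icam1 difference was 0.04 in both. That level correlated with response at r = 0.86 in AB1 and 0.69 in Renca over 24 libraries. The part of leukocytes, fibroblasts, pericytes and platelets in the member differences was not tested beyond these values.

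AB1 and Renca differed in the members' levels, but line, day of removal and flow cell cannot be told apart in this comparison. In AB1, 7 of 9 were higher and 1 lower, where 81.4% of 16258 genes passed, 42.2% higher and 39.3% lower. Vcam1 differed most, at 1.62 ± 0.14 (edgeR adjusted p = 2.27e-15), with all 24 AB1 libraries above the Renca median and 19 above the highest Renca library. Sele was higher by 1.12 ± 0.21 (adjusted p = 4.91e-06), Icam1 by 0.60 ± 0.14 (adjusted p = 0.00013), Pecam1 by 0.56 ± 0.05 (adjusted p = 8.03e-14) and Selp by 0.51 ± 0.13 (adjusted p = 0.000494). Icam1 was higher among responders (1.0, adjusted p = 2.25e-07) and did not pass among non-responders (0.18, adjusted p = 0.44), whereas Selp passed among non-responders (0.85, adjusted p = 8.87e-05) and not among responders (0.16, adjusted p = 0.38). Plvap and Cdh5 were higher by 0.24 ± 0.07 (adjusted p = 0.00233) and 0.20 ± 0.07 (adjusted p = 0.0065). Cdh5 did not pass among responders alone (0.17, adjusted p = 0.154) nor Plvap among non-responders alone (0.15, adjusted p = 0.106). Robo4 was lower (-0.26 ± 0.06, adjusted p = 0.000135), and Emcn did not pass (0.06 ± 0.07, adjusted p = 0.437). No member separated all AB1 from all Renca libraries, which 21.1% of genes did.

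The members' variation among tumours of the same group was read as correlation over 24 libraries of each tumour, on log2 CPM centred within response group and flow cell. Of 72 pairs over both tumours, 11 passed at a Benjamini-Hochberg adjusted permutation p under 0.05, 10 of them positive. Cdh5 and Robo4 were the closest identity pair in AB1 (r = 0.83, rho = 0.84, permutation p = 3e-05, adjusted p = 0.00108; r = 0.78 without the 2 libraries farthest from the median). They also passed in Renca (r = 0.68, rho = 0.63, permutation p = 0.00219, adjusted p = 0.0225; r = 0.51 without 2 libraries). Sele and Selp, neighbouring genes on chromosome 1, were the closest pair in Renca (r = 0.90, rho = 0.89, permutation p = 1e-05, the smallest these resamples can give, adjusted p = 0.00072; r = 0.84 without 2 libraries). In AB1 that pair had r = 0.47 (rho = 0.41, permutation p = 0.058, adjusted p = 0.161; r = 0.50 without 2 libraries).

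Icam1 passed with different adhesion genes in the tumours, a difference not itself tested. With Sele it was positive in both and did not pass by r. Values were r = 0.50 in AB1 (rho = 0.43, permutation p = 0.05, adjusted p = 0.15) and 0.65 in Renca (rho = 0.64, permutation p = 0.0174, adjusted p = 0.0894). By rho the Renca pair with Sele passed (permutation adjusted p = 0.025), and Icam1 with Vcam1 in AB1 did not (0.0985). By r, Icam1 passed with Vcam1 in AB1 (r = 0.67, rho = 0.52, permutation p = 0.00282, adjusted p = 0.0242, r = 0.55 without 2 libraries). In Renca it passed with Selp (r = 0.73, rho = 0.78, permutation p = 0.00105, adjusted p = 0.0126, r = 0.71 without 2 libraries). Robo4 and Vcam1 in AB1 gave the 1 negative pair (r = -0.67, rho = -0.60, permutation p = 0.00104, adjusted p = 0.0126; r = -0.58 without 2 libraries). Between an identity and an adhesion gene, 1 of 20 pairs passed in AB1 and 0 of 20 in Renca, with a median r of -0.10 and 0.02. Members were also set against the log2 of the summed CPM of a list, in a family of 108 relations of which 19 passed. Against the inducer and NF-kB feedback list, Icam1 had r = 0.95 in AB1 (rho = 0.91, permutation p = 1e-05, adjusted p = 0.00054, r = 0.93 without 2 libraries) and 0.88 in Renca (rho = 0.80, permutation p = 2e-05, adjusted p = 0.00072, r = 0.77 without 2 libraries). Against leukocyte markers it had r = 0.71 in AB1 (rho = 0.65, permutation p = 0.00013, adjusted p = 0.00252; r = 0.57 without 2 libraries) and 0.83 in Renca (rho = 0.81, permutation p = 1e-05, adjusted p = 0.00054; r = 0.77 without 2 libraries).

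Vcam1 passed against the inducer list in AB1 (r = 0.74, rho = 0.67, permutation p = 0.00032, adjusted p = 0.00432, r = 0.71 without 2 libraries). In Renca it passed by rho (0.59, permutation adjusted p = 0.0264) and not by r (0.49, permutation p = 0.0359, adjusted p = 0.138, r = 0.44 without 2 libraries). Pecam1, which leukocytes also carry, had r = 0.54 against leukocyte markers in AB1 (permutation p = 0.0186, adjusted p = 0.0838, r = 0.58 without 2 libraries). By rho (0.62) that relation passed (permutation p = 0.0041, adjusted p = 0.0295). Robo4 was negative against the inducer list in AB1 (r = -0.60, permutation p = 0.00605, adjusted p = 0.0384, r = -0.56 without 2 libraries). By rho (-0.54) it did not pass (permutation p = 0.0136, adjusted p = 0.0817).

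Selp in AB1 passed against 4 lists. Its highest r was with lymphatic endothelial genes (r = 0.74, rho = 0.77, permutation p = 0.00018, adjusted p = 0.00278; r = 0.77 without 2 libraries). It also passed with pericyte and smooth muscle genes (r = 0.66, rho = 0.71, permutation p = 0.00061, adjusted p = 0.00659; r = 0.54 without 2 libraries), other blood endothelial genes (r = 0.63, rho = 0.49, permutation p = 0.00661, adjusted p = 0.0389; r = 0.45 without 2 libraries) and fibroblast markers (r = 0.62, rho = 0.67, permutation p = 0.00684, adjusted p = 0.0389; r = 0.54 without 2 libraries). Pdpn weighed most in the summed lymphatic level, at an average of 6.08 log2 CPM in AB1, against 3.29 for Flt4 and -0.86 for Prox1. Whether the Selp relation holds for the other lymphatic genes was not tested. In Renca, Selp passed with leukocyte markers alone (r = 0.65, rho = 0.61, permutation p = 0.00485, adjusted p = 0.0377, r = 0.53 without 2 libraries).

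In Renca, 3 identity genes went with the other blood endothelial genes. Cdh5 had r = 0.83 (rho = 0.73, permutation p = 8e-05, adjusted p = 0.00216; r = 0.70 without 2 libraries), Pecam1 r = 0.82 (rho = 0.65, permutation p = 0.00014, adjusted p = 0.00252; r = 0.71 without 2 libraries) and Plvap r = 0.62 (rho = 0.64, permutation p = 0.00073, adjusted p = 0.00717; r = 0.68 without 2 libraries). In AB1 the same relations did not pass, at r = 0.16 for Cdh5 (rho = 0.11, permutation p = 0.493, adjusted p = 0.701; r = -0.03 without 2 libraries), -0.07 for Pecam1 (rho = -0.16, permutation p = 0.791, adjusted p = 0.922; r = -0.06) and 0.27 for Plvap (rho = 0.23, permutation p = 0.2002, adjusted p = 0.416; r = 0.25). The difference between the tumours was not tested. The list level is a sum of CPM, so its most abundant genes weigh most. The most abundant was Aqp1 in AB1 (an average of 8.84 log2 CPM) and Ramp2 in Renca (7.98). In AB1 against Renca, Aqp1 was higher (1.75) and Ramp2 lower (-3.10), so different genes weigh most in the sums of the tumours. Cd34, also carried by fibroblasts, had medians of 286 and 505 CPM in AB1 responders and non-responders, in list sums of 1596 and 2008. In Renca it had 105 CPM in each, in list sums of 1567 and 1517. Relations to the list without its most abundant genes were not tested. Emcn was negative against leukocyte markers in Renca (r = -0.70, rho = -0.66, permutation p = 0.00136, adjusted p = 0.0122; r = -0.59 without 2 libraries). Plvap passed with pericyte and smooth muscle genes in Renca (r = 0.45, rho = 0.63, permutation p = 0.00044, adjusted p = 0.00528; r = 0.58 without 2 libraries). Pecam1 and Cdh5 also passed with that list (r = 0.73 and 0.68, rho = 0.43 and 0.51, permutation p = 0.00558 and 0.00551, both adjusted p = 0.0377), as Plvap did with fibroblast markers (r = 0.70, rho = 0.47, permutation p = 0.0052, adjusted p = 0.0377). These 3 fell to r = 0.32, 0.37 and 0.41 without 2 libraries and rest on those libraries.

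**Figure D5:**
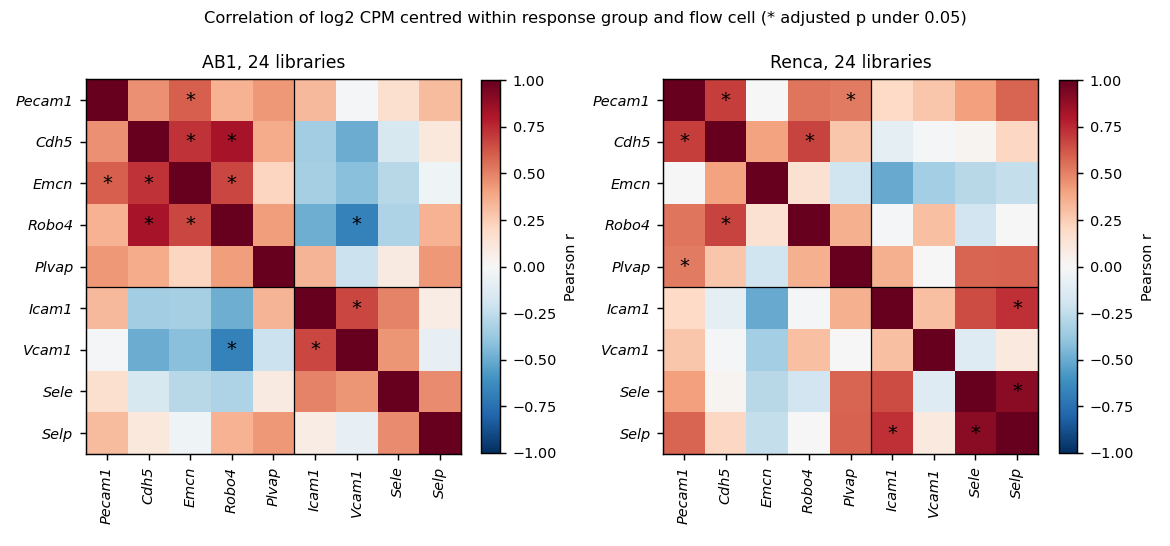
Pearson r between members (colour scale from -1 to 1) over 24 AB1 and 24 Renca libraries, on log2 CPM centred within response group and flow cell, with identity genes before and adhesion genes after the black lines. Stars mark adjusted permutation p under 0.05, and Sele with Selp in Renca (r = 0.90) and Cdh5 with Robo4 in AB1 (r = 0.83) are the strongest.

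Among 10967 other genes ranked by r over the 48 libraries, centred within group and flow cell, the nearest to each member were as follows, as a description with no test, since all share library and depth. Tie1, an endothelial receptor kinase, was nearest to Cdh5 (r = 0.89) and to Robo4 (r = 0.75), Eng to Plvap (r = 0.85) and Egfl7, an endothelial secreted protein, to Pecam1 (r = 0.70). Emcn had Qrsl1 nearest (r = 0.67). Icam1 was nearest to Acod1, the itaconate enzyme of activated macrophages (r = 0.93), and Vcam1 to Slfn1 (r = 0.74). Ehd3 was nearest to both selectins (r = 0.71 with Sele and 0.87 with Selp), and Ackr1 was next for Selp (r = 0.74).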

How the data were processed

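RNA of 48 whole tumours was measured by Illumina sequencing. Per the file headers and the labels, the authors deposited raw counts per gene, not normalised, for 39637 mouse Ensembl identifiers, of which 39461 matched GENCODE M21 (GRCm38), the source of the coordinates and exon lengths given here. Tools named in the submitters' processing notes are HISAT2 2.0.4, StringTie 1.3.0 and bcl2fastq 2.18.0.12, beside the human builds GRCh37 and hg19. Strand setting, mouse build, annotation and counting tool were not given in the sources used here. Totals ran from 16.4 to 27.8 M counts.

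Comparisons used edgeR 4.0.16 in R 4.3.3 with TMM scaling, filterByExpr, the quasi-likelihood test and Benjamini-Hochberg adjustment at 0.05 over all genes tested. Response was fitted within each tumour with flow cell as a term, its difference over all 48 libraries with 4 flow cells, and AB1 against Renca with response as a term. The standard error is the size of the log2 fold change divided by the square root of F. Log2 CPM used a prior count of 2. Permutation tests of correlations were two-sided, with 100000 resamples within response group and flow cell. Their p, adjusted p and counts passed refer to Pearson r unless rho is named. The first flow cell of a tumour held replicates 1 to 5 of AB1 or 1 to 6 of Renca. Per the labels, 8 of the 9 lanes of each tumour held 1 responder and the non-responder of the same number, and the other held 4 of each, so numbers do not mark pairs throughout. Alternatives covered scaling, filter, DESeq2 1.42.0, covariates, replicate block, lane (added after the data were seen), flow cells apart and each library left out.

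In simulated counts with known changes, 68.8% of 1.5-fold and 89.6% of 2-fold changes were recovered in AB1 (15728 genes). In Renca 78.8% and 96.0% were (15675 genes). Changed genes numbered 96 at each fold in AB1, and 99 and 100 in Renca, with 6 and 7 false calls. In the data a larger share of genes passed, 60.4% in AB1 and 19.6% in Renca, so these rates do not give the recovery there. The rule for named genes took all members in the table, the genes of smallest p or highest level in each context list, genes needed to state a list, and the nearest 3 genes to each member. The text names the members and only part of the rest, giving the nearest gene to each member and Ackr1, and not every list's leading gene. Members, lists and tests were chosen with earlier results of these data known.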

Additional observations from a re-analysis of the deposited data

Results flagged for a closer look

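The response effect differed between AB1 and Renca for 3 members, by an interaction test over all 48 libraries with edgeR and Benjamini-Hochberg adjustment. Icam1 differed by 0.90 on the log2 scale (adjusted p = 0.00368), with the larger effect in AB1, and lay between 0.75 and 1.05 as each library was left out. Pecam1 differed by 0.36 (adjusted p = 0.000952), higher in responders of AB1 and within the spread in Renca. Selp differed by -0.64 (adjusted p = 0.0247), higher in Renca responders and not past the threshold in AB1. Line, day of removal and flow cell cannot be told apart in these differences.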

How the results depend on the processing

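Over the alternative settings, including a leukocyte covariate and a lane term chosen after seeing the data, 315 member values were recomputed, besides the fits that left out a library. Of these, 260 kept direction and side of the threshold, 20 lost the call, 10 gained it and 25 changed sign. The AB1 calls of Pecam1, Icam1 and Vcam1 were lost under the leukocyte covariate alone. Replicate numbers share a lane for 8 of 12 pairs, and the other 4 pairs of each tumour share 1 lane. Deviations of same-numbered libraries from their group means correlated from -0.11 to 0.61 in AB1 and -0.18 to 0.43 in Renca, over 0.1 in 4 and 7 of 12 pairs. Of the 12 responders, 1 in AB1 and 2 in Renca correlated best with the non-responder of their own number. With the replicate block, Plvap in AB1 (0.23), Vcam1 in Renca (0.56) and Vcam1 in the difference of effects (0.57) passed, Sele in Renca (0.95) did not, and no other member call changed. It called 9714 genes in AB1, 2721 in Renca and 7112 for the difference. The lane term gained Plvap in AB1 and Vcam1 in Renca and changed no other member call, with 9933, 2898 and 7197 genes called.

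Sign changes touched values that had not passed, except Selp in Renca, and the cause was not tested. With the endothelial covariate, AB1 gave 0.12 for Cdh5 (edgeR adjusted p = 0.0383), 0.22 for Emcn, 0.0082 for Robo4 and 0.0197 for Selp, and Renca 0.025 for Robo4. With the leukocyte covariate, AB1 gave 0.17 for Cdh5, 0.39 for Emcn, 0.17 for Robo4, -0.28 for Sele and 0.0025 for Selp, and Renca 0.0049 for Emcn, -0.035 for Plvap, -0.0032 for Selp and -0.0093 for Vcam1. Within the first flow cell, Renca gave 0.14 for Cdh5 and 0.10 for Robo4. Within the second, AB1 gave 0.035 for Cdh5 and 0.26 for Emcn, and Renca -0.038 for Pecam1 and -0.11 for Plvap. Purity ratios gave 0.013 for Cdh5 in Renca, and the fit of all 48 libraries -0.0031 for Plvap in Renca. The difference of effects for Cdh5 was -0.0498 with no flow cell term and -0.038 with no filter. Emcn between tumours was -0.0044 among non-responders.

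Genes called numbered 5816 in the first AB1 flow cell and 0 with the leukocyte covariate, against 9577. In Renca they numbered 204 with purity ratios, 1040 in the fit of all 48 libraries, 0 in the first flow cell (2803 at an unadjusted p under 0.05 by edgeR), 1253 in the second and 0 with the leukocyte covariate, against 3095. Each part of a split holds fewer samples. Centring within response group only gave 27 member pairs past the threshold against 11. Leaving out each library gave 9069 to 9998 genes in AB1, 2304 to 3954 in Renca and 6674 to 7761 for the difference. Values that changed sign in those fits ran from -0.10 to 0.0201 for Emcn in AB1, -0.0058 to 0.050 for Plvap and -0.0489 to 0.013 for Robo4 in Renca, and -0.033 to 0.068 for the Cdh5 difference. Sele had the fewest counts, and its SE in Renca, 0.31, was the largest of the members there.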
